A study of Mus musculus with 32 samples.

Results

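The genes described here code for the amyloid precursor protein family (App, Aplp1 and Aplp2), for proteins that cut it (Bace1 and Psen2), for the lipid carriers apolipoprotein E (Apoe) and clusterin (Clu), and for the microtubule-associated protein tau (Mapt). The 8 symbols were picked with earlier results of these data known, and the probes are all those of the array that carry any of them. Of the 25697 probes, 10 did, for 7 of the 8 symbols, and no synuclein gene was among the symbols. Clu had no row of its own. App, Aplp1, Aplp2, Bace1, Psen2 and Apoe had 1 probe each and Mapt had 4. A probe was tested if its signal stood above the negative control beads (detection p-value under 0.01) on 24 or more arrays, which 10187 probes of 7926 symbols did. This left 9 of the 10 probes, because 1 Mapt probe was detected on 22 arrays.

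RNA came from the frontal cortex (FCtx) of 32 female mice of the F1 cross C57BL/6J x FVB/NJ, hybridized at 1 array per mouse to Illumina BeadChips of the type MouseRef-8 v2.0. The 20 ethanol-treated mice could drink 20% ethanol, with water as the other choice, in sessions of 3 h over 20 days, and the 12 controls were untreated. The study places sacrifice 20 h after the last session in its Methods and 24 h after it in its Discussion. The labels name this direction of the cross and the Methods both directions. Neither gives an age in weeks, and the Discussion places the treatment in early adulthood. As to the model, it is voluntary drinking by F1 hybrids of inbred strains, with no genetic change named for either group. The arrays lay on 4 chips of 8. Chips 1 and 2 held 8 ethanol-treated mice each and chip 4 held 8 controls, so on these chips treatment and chip cannot be told apart. Chip 3 was mixed. Its 4 ethanol-treated mice took every other position from A to G, called odd here, and its 4 controls the positions from B to H between them, called even, so there treatment and odd or even position cannot be told apart. The labels name each mouse, and each array is treated as 1 mouse.

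The amyloid precursor protein is a membrane protein of neurons. Beta-secretase, which Bace1 encodes, and then gamma-secretase, whose catalytic subunit is a presenilin such as the product of Psen2, release amyloid-beta from it. Aplp1 and Aplp2 are its relatives, which lack the amyloid-beta stretch. Apolipoprotein E, made in brain mainly by astrocytes, carries cholesterol and other lipids between cells, and clusterin is another secreted apolipoprotein and chaperone. Tau binds microtubules in axons, and its messenger is spliced into isoforms that differ in N-terminal inserts and in the number of microtubule-binding repeats.

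What a probe can read is set by its 50 bases, as the deposited table gives them, 5′ to 3′. Apoe and Aplp1 are shown because they carry the calls below, and 2 of the tested Mapt probes because they read different stretches of tau. The Apoe and Mapt probes lie in coding sequence, and the Aplp1 probe reaches its end.
Apoe: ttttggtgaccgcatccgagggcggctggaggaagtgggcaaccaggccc
Aplp1: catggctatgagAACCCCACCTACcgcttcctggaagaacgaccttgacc
Mapt, from base 1159 of its reference transcript: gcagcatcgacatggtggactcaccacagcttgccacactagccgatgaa
Mapt, from base 336: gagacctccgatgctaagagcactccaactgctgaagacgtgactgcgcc
The capitals in the Aplp1 probe mark the codons of asparagine, proline, any residue and tyrosine, the sorting motif of the cytoplasmic tail by which adaptor proteins bind this family. Read in the 3 frames of the probe strand, the 4 codons occur in 42 of the 25697 probes (0.163%). The Mapt probe from base 1159 lies near the C-terminus, which the tau isoforms share. The probe from base 336 lies in the N-terminal inserts and is marked in the table as reading only some isoforms. These are called the C-terminal and insert probes, and the remaining tested probe, from base 837, the base 837 probe. The fourth Mapt probe, from base 5208, is the one not tested.

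App (gene ID 11820) is on chromosome 16, Aplp1 (11803) and Apoe (11816) on chromosome 7, Aplp2 (11804) and Bace1 (23821) on chromosome 9, Psen2 (19165) on chromosome 1 and Mapt (17762) on chromosome 11. All tested probes were detected on 32 arrays, except the insert probe of Mapt on 30. Median signals, on the linear scale of the scanner, ranged from 225 for that insert probe and 262 for Psen2 to 8409 for App. Signals of different probes depend on the probe and do not rank the genes. After a variance-stabilizing transform and quantile normalization the values are on a log2 scale, and differences are given as ethanol-treated minus control unless another order is named.

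Apoe was the only one of these genes called across all 32 arrays, where a call is an FDR below 1% over all 10187 tested probes by limma. Its normalized value ranged from 12.17 to 12.83 in the 20 ethanol-treated mice (median 12.45) and from 11.92 to 12.42 in the 12 controls (median 12.21). The groups overlapped, but 19 of the 20 ethanol-treated mice exceeded the control median and 14 exceeded every control. Apoe averaged 12.48 ± 0.14 (SD, n = 20) against 12.21 ± 0.15 (SD, n = 12), a difference of 0.26 (standard error 0.05, adjusted p = 4.86e-04 by limma), which is a 1.20-fold higher value. This is larger in size than the difference of 98.2% of the tested probes. Calls were not rare on these arrays: 8.24% of all tested probes were called, in either direction, beside 1 of the 9 member probes. In tissue RNA, more cells that express Apoe and more Apoe messenger per cell cannot be told apart.

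The difference in Apoe was of a like size within the chip that holds both groups. On chip 3 the 4 ethanol-treated mice gave 12.43, 12.47, 12.50 and 12.55. The 4 controls gave 12.14, 12.26, 12.30 and 12.38, all below them. Aplp1 and Aplp2 were also without overlap on chip 3, and the share of all tested probes without overlap there was not counted. The Apoe difference on chip 3 was 0.22 (standard error 0.06, adjusted p = 0.0272 by limma), which misses an FDR of 1%. The exact two-sided permutation test over the 8 arrays gave p = 0.0286, the smallest that 4 against 4 arrays allow. Between chips 1 and 2 on the ethanol side and chip 4 on the control side the Apoe difference was 0.29 (standard error 0.06, adjusted p = 0.00170 by limma). In that comparison 11.8% of all tested probes were called. The 2 estimates differed by -0.07 (95% interval -0.27 to 0.13, adjusted p = 0.712 by limma). At odd against even positions of chips 1, 2 and 4, Apoe differed by -0.05 (95% interval -0.15 to 0.06, adjusted p = 0.585 by limma), and within chip 4 the 4 controls at odd positions averaged 12.11 and the 4 at even positions 12.26. The treatment estimate was 0.37 at odd positions alone (adjusted p = 9.08e-04 by limma) and 0.21 at even positions alone (adjusted p = 0.124). The difference between these was not tested.

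Apoe also varied between chips of the same treatment. On chip 1 it averaged 12.58 ± 0.14 (SD, n = 8) and on chip 2 12.37 ± 0.10 (SD, n = 8), both of them ethanol-treated. Their difference was 0.20 (standard error 0.06, adjusted p = 0.0906 by limma), in a comparison added after the data had been seen that called 0.00982% of all tested probes. It was not called, but it is close in size to the difference between treatments. The controls of chip 3 and chip 4, compared at even positions, differed by 0.0074 in Apoe (95% interval -0.16 to 0.17, adjusted p = 0.968 by limma, n = 4 and 4). Fitted with a fixed block for chip, so that the estimate rests on chip 3, Apoe gave 0.22 (adjusted p = 0.138 by limma), with a random block 0.25 (adjusted p = 0.0111), and at even positions alone 0.21 (adjusted p = 0.124), so none of these 3 fits called it.

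**Figure D1:**
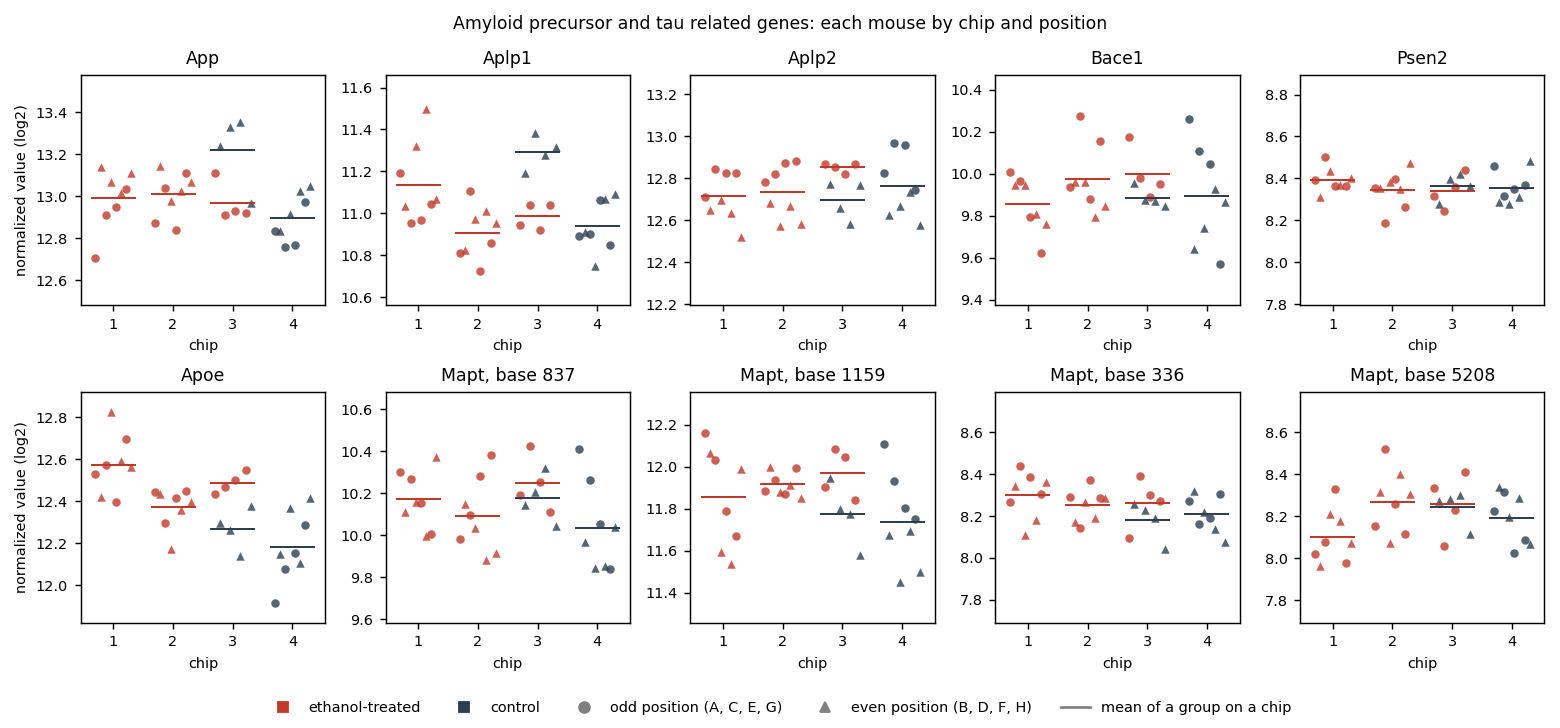
Normalized value (log2, vertical axis, each panel spanning the same range) of each of the 10 member probes in each of the 32 mice, by chip (horizontal axis), with ethanol-treated mice in red, controls in dark blue, odd positions as circles, even positions as triangles, and lines at the mean of each group on a chip. Apoe is higher on the 3 sets of ethanol-treated mice than on both sets of controls, Aplp2 is higher at odd positions on every chip, and the controls of chip 3 stand high in App and Aplp1.

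Astrocytes are the main source of Apoe in brain, and their markers did not move as a whole across the 32 arrays. Of 10 tested probes for 9 of the 10 listed astrocyte genes, 1 was called, beside 8.24% of all tested probes. It was that of the water channel Aqp4 (0.47, adjusted p = 0.00125 by limma), and the median difference of the list was -0.02. The mean level of the list ranged from 10.30 to 10.51 in ethanol-treated mice and from 10.30 to 10.58 in controls. On chip 3 it ranged from 10.46 to 10.51 against 10.30 to 10.41, without overlap, and 3 of the 10 probes were called there, beside 2.84% of all tested probes, all higher in ethanol-treated mice: Aqp4, the glutamate transporter Slc1a3 and the connexin Gjb6. Between chips 1 and 2 and chip 4, Gjb6 was called the other way (-0.24, adjusted p = 0.00491 by limma), as was Glul, the glutamine synthetase of astrocytes (-0.17, adjusted p = 0.00424). Gfap, the intermediate filament of reactive astrocytes, was detected on 21 arrays and not tested. The part of the astrocyte markers in the Apoe difference was not tested.

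Clusterin could be looked at only through a probe named LOC100046120, which the table defines as similar to clusterin. It was picked after its values had been seen and is no member by symbol. It differed by 0.05 on all arrays (standard error 0.03, adjusted p = 0.224 by limma), by 0.05 within chip 3 and by 0.06 when chips 1 and 2 were set against chip 4, and it was not called.

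The precursor family gave no call across all arrays. App, the precursor itself, ranged from 12.71 to 13.14 in ethanol-treated mice (median 13.02) and from 12.76 to 13.35 in controls (median 12.97). The groups overlapped, but the chip 3 controls C52, C54 and C55 (13.24, 13.33 and 13.35) exceeded every ethanol-treated mouse, and 1 ethanol-treated mouse lay below every control. The App difference was -0.01 (95% interval -0.12 to 0.10, adjusted p = 0.921 by limma). Aplp1, the neuronal relative, gave -0.04 (95% interval -0.17 to 0.09, adjusted p = 0.680) and Aplp2, the broadly expressed relative, gave 0.0088 (95% interval -0.08 to 0.10, adjusted p = 0.915). These intervals do not exclude small changes in either direction.

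For App and Aplp1, chip 3 and the other chips gave estimates of opposite sign. On chip 3, Aplp1 gave 10.92, 10.94, 11.04 and 11.04 in the ethanol-treated mice. The controls gave 11.19, 11.28, 11.32 and 11.38, all above them. The difference was -0.31 (standard error 0.06, adjusted p = 0.00411 by limma, exact permutation p = 0.0286), and Aplp1 was the only one of the 9 member probes called on chip 3, where 2.84% of all tested probes were. Leaving out any of the ethanol-treated mice A46, A47 and A49 or the controls C54, C55 and C56 ended that call, with differences from -0.32 to -0.28 and adjusted p from 0.0105 to 0.0173 by limma, as did normexp background correction (-0.33, adjusted p = 0.0335). Between chips 1 and 2 and chip 4, Aplp1 differed by 0.08 (standard error 0.07, adjusted p = 0.432).

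App, which was not called on either side, gave estimates of the same signs. On chip 3 the ethanol-treated mice gave 12.91, 12.92, 12.93 and 13.11 and the controls 12.97, 13.24, 13.33 and 13.35. The values of 1 ethanol-treated mouse and 1 control crossed, and the difference was -0.25 (standard error 0.08, adjusted p = 0.0523 by limma, exact permutation p = 0.0571). Without that control, mouse C56, it was -0.34 (adjusted p = 0.00657), and without each of the other 7 mice in turn it ranged from -0.30 (adjusted p = 0.0379, without A46) to -0.21 (adjusted p = 0.153, without C55). Between chips 1 and 2 and chip 4 it was 0.11 (adjusted p = 0.122).

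The difference between the 2 estimates was tested in a single fit over all 5 sets of mice. It was -0.36 for App (standard error 0.10, adjusted p = 0.0177 by limma) and -0.39 for Aplp1 (standard error 0.11, adjusted p = 0.0175). Neither passed an FDR of 1%, which 3.53% of all tested probes did. At even positions, the same controls of chip 3 were higher than those of chip 4 by 0.27 in App (adjusted p = 0.0648) and by 0.34 in Aplp1 (adjusted p = 0.0185), a comparison that called none of the 9 member probes and 1.51% of all tested probes. The ethanol-treated mice of chip 3 averaged 12.97 ± 0.09 in App and 10.99 ± 0.06 in Aplp1 (SD, n = 4). Aplp1 also differed between chips 1 and 2, which hold ethanol-treated mice only, by 0.23 (adjusted p = 0.133 by limma).

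Aplp2 differed by position on the chip and was not called for treatment. Its values at odd positions lay above those at even positions on each of the 4 chips, without overlap. On chip 1 they were 12.71 to 12.84 against 12.52 to 12.70, on chip 2 12.78 to 12.88 against 12.57 to 12.68, and on chip 4 12.743 to 12.97 against 12.58 to 12.736. On chip 3, where the odd positions are the ethanol-treated mice, they were 12.82, 12.86, 12.87 and 12.87 against 12.58, 12.66, 12.77 and 12.77. The odd minus even difference on chips 1, 2 and 4, within which treatment does not vary, was 0.20 (standard error 0.03, adjusted p = 5.41e-04 by limma), and Aplp2 was the only member probe called among the 3.88% of all tested probes that were. The difference between treatments on chip 3 was 0.16 (adjusted p = 0.0781 by limma, exact permutation p = 0.0286), and there it cannot be told apart from position. App had a difference of the opposite sign at odd against even positions, -0.13 (adjusted p = 0.0321), and Aplp1 one of -0.10 (adjusted p = 0.246).

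**Figure D2:**
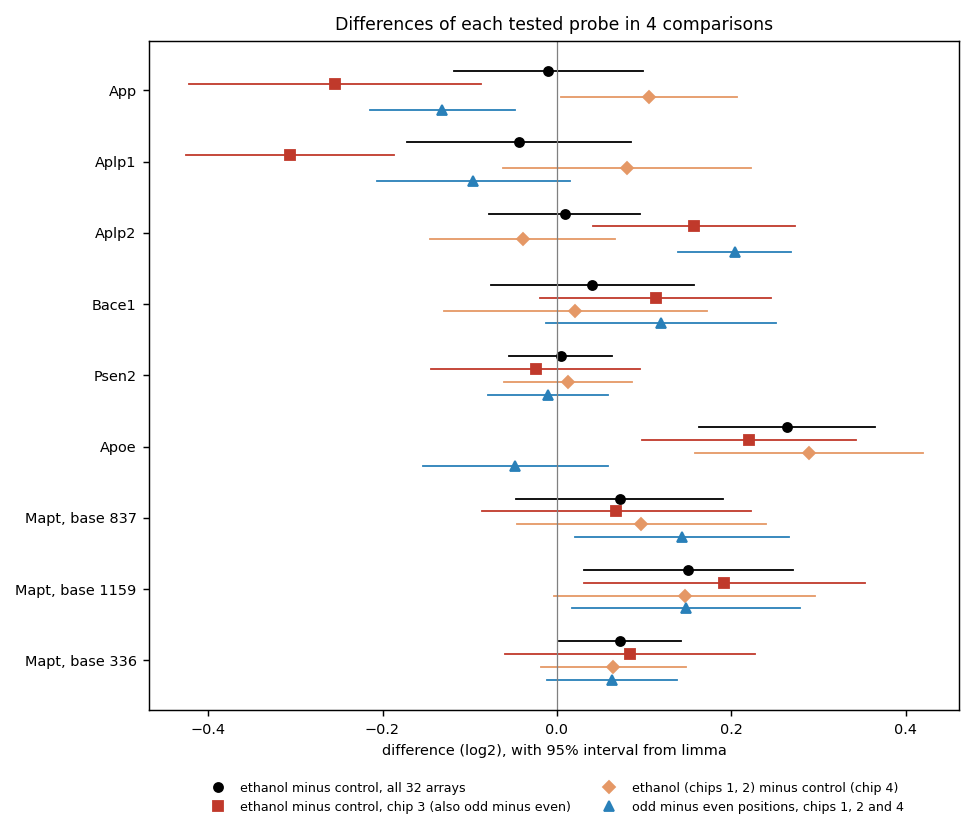
Difference on the log2 scale (horizontal axis, points, with bars for limma's 95% interval) of the 9 tested member probes (vertical axis) in 4 comparisons. Apoe has intervals above 0 in the 3 comparisons of treatment and an interval across 0 for odd against even positions, App and Aplp1 lie on opposite sides of 0 on chip 3 and on chips 1, 2 and 4, and Aplp2 on chip 3 (0.16) lies near its odd minus even difference (0.20).

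The genes for the cutting enzymes did not pass the test in any comparison. Bace1 ranged from 9.62 to 10.28 in ethanol-treated mice (median 9.95) and from 9.57 to 10.26 in controls (median 9.87). Its difference was 0.04 on all arrays (95% interval -0.08 to 0.16, adjusted p = 0.668 by limma) and 0.11 on chip 3 (adjusted p = 0.264). Psen2 ranged from 8.19 to 8.50 (median 8.36) and from 8.28 to 8.48 (median 8.36) and differed by 0.0041 (95% interval -0.05 to 0.06, adjusted p = 0.940). Psen2 had the narrowest spread of the 9 probes, with a within-group SD of 0.07 that 10.2% of all tested probes undercut. Aplp1 had the widest, at 0.19, above that of 94.5% of the tested probes.

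The tested tau probes were higher in ethanol-treated mice by estimate, and none was called. The C-terminal probe ranged from 11.54 to 12.16 (median 11.91) in ethanol-treated mice and from 11.45 to 12.11 (median 11.76) in controls, and 17 of 20 ethanol-treated mice exceeded the control median. Its difference was 0.15 (standard error 0.06, adjusted p = 0.0699 by limma), past an FDR of 10% with a change of at least 1.1-fold, a rule that 12.3% of all tested probes and 2 of the 9 member probes met. It no longer met that rule without control mouse C66 (0.13, adjusted p = 0.148 by limma) or with median scaling (0.14, adjusted p = 0.402). The same held with no detection filter (0.15, adjusted p = 0.146) and with position as a covariate (adjusted p = 0.151). Chip as a fixed block (adjusted p = 0.361), a random block (0.201) or a fixed block with position (0.949) also ended it. So did chips 1, 2 and 4 alone, odd positions alone (0.810) and even positions alone (0.222). The rule was still met with log2 signal, normexp, array weights, probes detected on all arrays, and even positions of chips 1, 2 and 4. The estimate was 0.04 at odd positions alone and 0.18 at even ones, and on chips 1, 2 and 4 it was 0.02 at odd (adjusted p = 0.919) and 0.27 at even positions (adjusted p = 0.0544), a difference that was not tested. On chip 3 the ethanol-treated mice gave 11.84, 11.90, 12.05 and 12.08 and the controls 11.58, 11.78, 11.80 and 11.95. They overlapped, and the difference of 0.19 had an adjusted p of 0.120 by limma (exact permutation p = 0.114). The same probe was higher by 0.15 at odd than at even positions of chips 1, 2 and 4 (adjusted p = 0.120).

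The base 837 probe differed by 0.07 (standard error 0.06, adjusted p = 0.420 by limma) and the insert probe by 0.07 (standard error 0.03, adjusted p = 0.142). On chip 3 they gave 0.07 and 0.08. At even positions, controls of chip 3 were higher than those of chip 4 by 0.25 in the base 837 probe (adjusted p = 0.0423 by limma). The same comparison gave 0.20 in the C-terminal probe (adjusted p = 0.152) and -0.0077 in the insert probe (adjusted p = 0.961). The untested probe from base 5208 gave -0.0098 (adjusted p = 0.95 by limma) when all probes of the array were fitted. Whether the tested probes differed from each other was examined within arrays, by permutation tests with 100000 resamples added after the data had been seen. The gap between the C-terminal and insert probes was larger in ethanol-treated mice by 0.08 (adjusted permutation p = 0.292 over the 3 pairs), that between the base 837 and C-terminal probes changed by -0.08 (adjusted permutation p = 0.292), and that between the base 837 and insert probes by -0.0007 (adjusted permutation p = 0.991). No difference between isoform stretches was therefore detectable with these arrays.

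At the wider rule of an FDR below 10% with at least 1.1-fold, chip 3 alone gave 4 of the 9 member probes, App and Aplp1 lower and Aplp2 and Apoe higher in ethanol-treated mice, where 16.9% of all tested probes passed. Over all 32 arrays, the median difference of the 9 probes was 0.04 and that of all tested probes -0.0028, and the median size was 0.04 against 0.05.

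How the probes moved together from mouse to mouse was described after centring each within its group and chip, over 32 arrays that share chips, positions and normalization. The base 837 and C-terminal probes of Mapt had a Pearson r of 0.640. Bace1 followed them, with 0.587 and 0.496. Apoe ran opposite to the C-terminal probe of Mapt, with -0.607, although both were higher in ethanol-treated mice by estimate. Aplp1 ran opposite to the insert probe of Mapt, with -0.618. The r of -0.469 between App and Aplp2 came to -0.153 once values were also centred by odd or even position, whereas that between Apoe and the C-terminal probe came to -0.54.

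**Figure D3:**
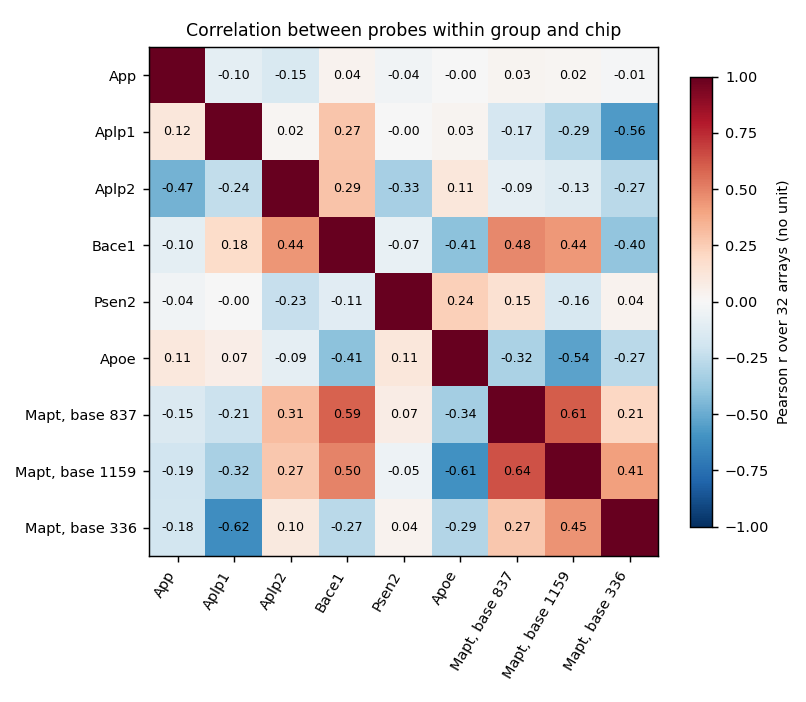
Pearson r (colour and printed value, no unit) between the 9 tested member probes over the 32 arrays, after centring within group and chip (below the diagonal) and also within odd or even position (above it). The base 837 and C-terminal (base 1159) probes of Mapt and Bace1 form a positive group, and Apoe is negative with the C-terminal probe on both sides of the diagonal.

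The genes whose values ran closest to each member, by the same centred r over 32 arrays, were as follows. For Apoe they were BC022687, Tfam and Pde6d, with r between 0.625 and 0.670. For App they were Cadm2, Htr1a and Kifap3 (0.627 to 0.646). Higher values were found for Bace1, with Grin1, the obligatory subunit of NMDA receptors, at 0.871 and Tcof1 at 0.865, and for Aplp1, with 1700021K19Rik, Ubqln4 and Ulk1 between 0.812 and 0.818. The C-terminal probe of Mapt ran with 6430510M02Rik, Txndc13 and Klf13 (0.802 to 0.810) and Psen2 with Ube2n, LOC668837 and Xpo6 (0.673 to 0.694). For Aplp2 they were Galnt2, Gbl and Suz12 (0.774 to 0.806), and the r with Galnt2 came to 0.359 once position was also centred.

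Of the other genes of these pathways, in 6 lists of 61 genes, 44 genes had tested probes, 61 in all. Across all arrays 5 of the 61 probes were called higher and 1 lower, beside 361 higher and 478 lower of the 10187, and the median difference was 0.0092. On chip 3 alone 2 were called higher and 2 lower, beside 136 higher and 153 lower of the 10187 (2.84%).

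Among the genes of amyloid precursor cleavage, which take in the alpha-secretases and the other subunits of gamma-secretase, 1 of 8 probes was called. It was 1 of 2 tested probes of nicastrin (Ncstn), at -0.21 (adjusted p = 7.14e-04 by limma), while the other gave -0.03 (adjusted p = 0.645), and on chip 3 both gave 0.02 to 0.03. Psenen, a further gamma-secretase subunit, gave -0.05 (adjusted p = 0.455), and Adam17, an alpha-secretase, gave 0.0050 (adjusted p = 0.908).

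Among adaptors and sorting proteins of the precursor, 1 of 13 probes was called, for Apba2, a neuronal adaptor that binds the tail motif shown above, at 0.18 (adjusted p = 0.00764 by limma). On chip 3 the called Apba2 probe gave 0.03 (adjusted p = 0.861 by limma). On the other chips, where treatment and chip cannot be told apart, it was called, at 0.24 (adjusted p = 0.00254 by limma). The other tested Apba2 probe gave -0.02 across all arrays (adjusted p = 0.720). On chip 3 the call of this list went to a probe of Itm2b, whose product binds the precursor, at 0.34 (adjusted p = 0.00421), and this probe gave 0.06 across all arrays. The other tested probe of Itm2b gave -0.02 on chip 3 and -0.11 across all arrays (adjusted p = 0.0238 by limma). None of the 3 tested probes for enzymes and inhibitors of amyloid-beta clearance was called, with Ece1, a protease that degrades amyloid-beta, at -0.12 (adjusted p = 0.0394).

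Apolipoprotein E is taken up by lipoprotein receptors, and 1 of 7 probes of that list was called, for the lipoprotein receptor Vldlr. Its 3 tested probes gave 0.26 (adjusted p = 0.00778 by limma), 0.17 (adjusted p = 0.0179) and 0.14 (adjusted p = 0.134) across all arrays. On chip 3 they gave 0.25, 0.23 and 0.28 (adjusted p from 0.0261 to 0.0627). Vldlr had the sign of Apoe in every tested probe and on chip 3, in the same mice, and a link between them was not tested. The median difference of the list was -0.02 across all arrays and 0.23 on chip 3, with 3 of its 7 probes those of Vldlr. Abcg1, a cholesterol exporter, gave -0.11 (adjusted p = 0.0148). Abca7, another lipid transporter, was called higher on chip 3, at 0.32 (adjusted p = 0.00213 by limma). Between chips 1 and 2 and chip 4 the same probe was called lower, at -0.19 (adjusted p = 0.00164 by limma). Across all arrays it gave -0.04 (adjusted p = 0.634). The probes of Lrp8 and Abca1 were detected on 0 arrays.

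Among kinases and phosphatases that act on tau, 2 of 17 probes were called higher. They were 1 probe of Mark2, a kinase of the microtubule-binding repeats, at 0.22 (adjusted p = 0.00383 by limma), and 1 of casein kinase 1 delta, Csnk1d, at 0.15 (adjusted p = 0.00656). The other Mark2 probe gave -0.14 (adjusted p = 0.0118), so the probes of this gene disagreed in sign, and the other 3 of Csnk1d gave 0.11, 0.05 and -0.07. On chip 3 Mark1 at -0.31 and a probe of Ppp2r5c at -0.34 were called lower instead. On the other chips, where treatment and chip cannot be told apart, the same Ppp2r5c probe was called higher, at 0.29 (adjusted p = 0.00495 by limma). Across all arrays this probe gave 0.08 (adjusted p = 0.557 by limma). Cdk5 and Gsk3b, the kinases best known for tau, gave -0.08 (adjusted p = 0.0951) and 0.03 (adjusted p = 0.782). Of 13 probes for other microtubule-associated proteins, 1 of Map1b was called, at 0.15 (adjusted p = 0.00914), and its other tested probes gave 0.10 and 0.0092. The called Map1b probe was near background, with a median signal of 213 and detection on 24 arrays. On chip 3 it gave 0.02 (adjusted p = 0.844 by limma). The Map1b probe that gave 0.0092 was detected on 32 arrays, with a median signal of 1143.

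**Figure D4:**
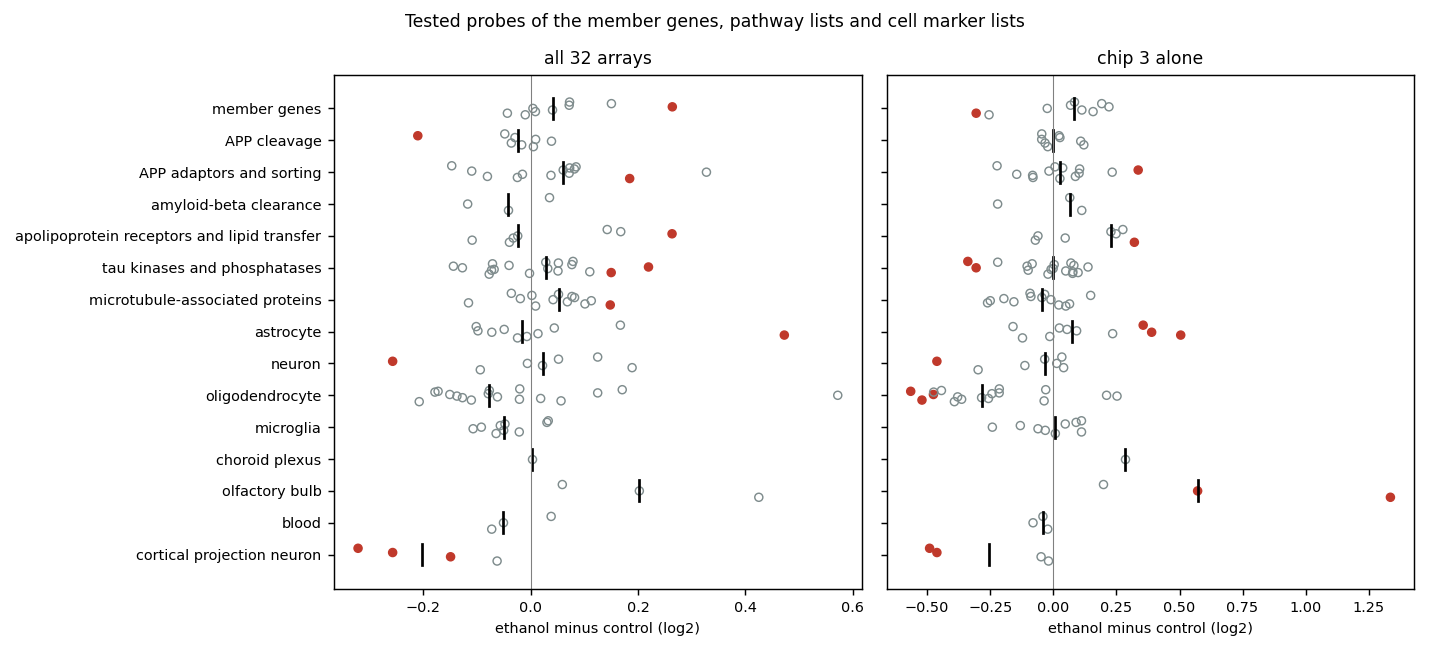
Difference between ethanol-treated mice and controls on the log2 scale (horizontal axes, of unlike range) of every tested probe of the member genes, the 6 pathway lists and the 8 cell marker lists (vertical axis), on all 32 arrays (left) and on chip 3 alone (right), with filled red points at an FDR below 1% by limma and black bars at the medians. The medians of the pathway lists lie between -0.04 and 0.06 on all arrays. On chip 3 the oligodendrocyte (-0.28) and cortical projection neuron (-0.26) lists lie lower. The olfactory bulb list (0.57), the choroid plexus probe (0.28) and the list of apolipoprotein receptors and lipid transfer (0.23) lie higher there.

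Across the 32 arrays, 9480 to 11544 probes were detected per array and the median signal lay between 146 and 203, lowest in control mouse C66 for both, whose removal left Apoe called. The tissue carried cortical markers: Tbr1, Slc17a7, Fezf2 and Cux2 were detected on 32 arrays, while the probe of Neurod6 was detected on 0. Of the 4 tested probes of this list, for 4 of its 6 genes, 3 were called lower in ethanol-treated mice (Tbr1 -0.32, Slc17a7 -0.26, Fezf2 -0.15). Of all 10187 tested probes, 478 were called lower. The mean level of the list ranged from 9.91 to 10.23 against 10.14 to 10.44. Of choroid plexus, Ttr was detected on 3 arrays and Kl and Folr1 on 0, and the tested probe, of the water channel Aqp1, was detected on 26 and was higher in ethanol-treated mice on chip 3 by 0.28 (adjusted p = 0.0148 by limma), without overlap (8.30 to 8.55 against 8.09 to 8.24). Of olfactory bulb, which the dissection was meant to leave out, Cdhr1 was detected on 31 arrays, a probe of Doc2g on 27 and another on 19. Sp8 was detected on 24 arrays, Eomes on 8 and Tbx21 on 1, and probes below 24 arrays were not tested. The mean level of the 3 tested bulb probes ranged from 8.08 to 9.93 in ethanol-treated mice and from 8.005 to 9.58 in controls. On chip 3, where Aplp1 was called, that level was 8.995 to 9.31 against 8.22 to 8.80. The oligodendrocyte level there was 9.68 to 9.86 against 9.80 to 10.34, with 3 of 17 probes called lower, beside 153 of all 10187. The neuron list, with 1 of 7 probes called lower (Slc17a7), had a mean level of 12.33 to 12.37 in the ethanol-treated mice of chip 3 and 12.40 to 12.52 in its controls, and the cortical projection neuron list one of 9.99 to 10.16 against 10.18 to 10.42, both without overlap. Over all arrays the neuron list ranged from 12.18 to 12.42 against 12.19 to 12.52. Tested microglia probes numbered 9 and blood probes 3, with no call in either set. The part of these lists in the differences of the member genes was not tested.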

How the data were processed

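The authors deposited, per probe and array, a linear bead signal intensity that is not normalized, a detection p-value, and as other values the bead standard error and the number of beads; background steps are not given in the sources used here. The submitters' processing notes name lumi and limma. All 32 arrays were matched to mice through the labels, with 0 columns left over. A variance-stabilizing transform written after lumi's and quantile normalization were run in R 4.3.3 (data.table, version 1.17.8), and groups were compared with limma 3.58.1 (lmFit, eBayes), with Benjamini-Hochberg adjustment over 10187 probes. Chip 3 also had an exact permutation test over its 70 splits. The transform and fits were tested on simulated data. Figures were made in Python 3.11.15 with matplotlib 3.10.9. Precision is limited by the number of arrays. The presence filter is one the Methods give for another step.

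The members, gene lists and tests were chosen with earlier results of these data known. Named genes were all member probes, the 3 genes closest to each member's brightest tested probe, at most 4 called genes per pathway list, and markers by list; other pathway genes given were picked after their values were seen. The last of the 3 partners of Bace1 is not named, since its symbol in the file is a number. Mtap symbols of the file are given as Map, and Pcdh21 as Cdhr1. Alternatives were log2 signal, normexp with an offset of 16, median scaling, other detection filters, chip and position terms, array weights, another threshold, and subsets of arrays. Comparing chips 1 and 2, comparing Mapt probes, and odd or even positions of chips 1, 2 and 4 alone were added after seeing the data. Some genes of the lists and the bases of 1 probe are not reported here. Probe coordinates are not printed, since their build is not named.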

Additional observations from a re-analysis of the deposited data

Results flagged for a closer look

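Within the groups of 4 on chip 3, 20 groups of values (10 probes in 2 groups) were examined by Dixon's test for a value far from the other 3, and 2 passed its critical value, where chance gives about 1 in 20. In App, ethanol-treated mouse A46, at 13.1, stood above the other 3 ethanol-treated mice, which lay between 12.91 and 12.93. In the untested Mapt probe from base 5208, control mouse C56, at 8.11, stood below the other controls, whose values were 8.27, 8.28 and 8.30.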

How the results depend on the processing

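No paired analysis was possible because the groups share no replicate numbers. Apoe kept its direction in 16 of 16 alternatives, with differences from 0.21 to 0.37, and its call in 11. The count of called members fell from 1 to 0 with chip as a fixed block (Apoe 0.22, adjusted p = 0.138 by limma), as a random block (0.25, 0.0111), as a fixed block with odd or even position (0.27, 0.330), at even positions (0.21, 0.124), and at even positions of chips 1, 2 and 4 (0.21, 0.158), and rose to 2 at an FDR below 10% with at least 1.1-fold. On chip 3 the count of 1 was 0 with normexp (Aplp1 -0.33, adjusted p = 0.0335) and ranged from 0 to 1 when each array was left out. There Aplp1 lost its call without ethanol-treated A46, A47 or A49 or control C54, C55 or C56, with differences from -0.32 to -0.28 and adjusted p from 0.0105 to 0.0173, and App gained one without C56 (-0.34, adjusted p = 0.00657).

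Members never called across all arrays changed sign in some settings. Aplp2 gave -0.0043 with median scaling, -0.0454 with position as a covariate, -0.0462 with block and position, -0.0394 on chips 1, 2 and 4 (-0.0532 at odd and -0.0255 at even positions), -0.0422 at odd and -0.0479 at even positions of all chips, and -0.0059 without C66. Psen2 gave -0.0242 with the fixed block, -0.0021 with the random block, -0.0140 with block and position, -0.0248 at odd positions and -0.0206 at those of chips 1, 2 and 4, and on chip 3 from -0.0582 to 0.0074 when each array was left out (0.0074 without A47). App gave 0.0356 with position as a covariate, 0.0012 with array weights, 0.11 on chips 1, 2 and 4 (0.0984 at odd and 0.113 at even positions) and 0.110 at odd positions. Aplp1 gave 0.0807 on chips 1, 2 and 4 (0.0311 at odd and 0.130 at even positions) and 0.0405 at odd positions. Bace1 gave -0.0064 with block and position, -0.0275 at odd positions and -0.0422 at those of chips 1, 2 and 4, and the base 837 probe of Mapt gave -0.0748 with block and position. The C-terminal probe of Mapt kept its sign but gave 0.0355 at odd positions, 0.0183 at those of chips 1, 2 and 4, 0.0437 with block and position, and 0.274 at even positions of chips 1, 2 and 4. The cause was not tested.

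Over all tested probes, calls went from 839 to 94 with median scaling, 14 and 72 with the fixed and random block, 1 with block and position, 4 at even and 435 at odd positions, and 270 and 296 at even and odd positions of chips 1, 2 and 4. With 12 controls, of which 4 share a chip with ethanol-treated mice, the fit with both chip and position separates treatment from them only imprecisely (for Apoe, standard error 0.10 against 0.05). Signal near background limits Psen2, the insert and base 5208 probes of Mapt, and the called probe of Map1b.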
